A study of Homo sapiens with 6 samples.

Results

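GDF15 and 9 core genes of the TGF-beta pathway were followed in KYSE150, a line of human cells from esophageal squamous cell carcinoma, carrying either a control hairpin (shCtrl) or a hairpin against the lncRNA AC007128.1 (shAC007128.1). The 10 genes were taken by symbol from the 67140 Ensembl identifiers of the deposited count table, through the gene names of GENCODE v44. They are the ligands GDF15, TGFB1, TGFB2 and INHBA, the receptors TGFBR1 and TGFBR2, and the signal transducers SMAD2, SMAD3, SMAD4 and SMAD7. All 10 were found, and all 10 passed the filter on low counts that left 19254 genes to test. They were picked with the difference between the hairpins already known, so that difference is described for them and not tested.

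Each group held 3 samples, told apart by their titles, in which the control is written shNC, while the treatment text of all 6 samples names shAC007128.1. The labels speak of transfected cells, and the methods of the study describe lentiviral delivery and stable lines kept under puromycin. Both groups rest on 1 cell line and 1 hairpin each, so effects of AC007128.1, of the hairpin and of the culture cannot be told apart. The labels do not say that the 3 samples came from separate cultures, so the errors and p-values here measure only the spread between these samples.

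The TGF-beta family signals through dimeric ligands that bring together a type II and a type I receptor kinase at the cell surface. For TGF-beta and activin ligands the type I receptor phosphorylates SMAD2 and SMAD3, which join SMAD4 and enter the nucleus, and SMAD7 is an induced inhibitor that blocks this step. In squamous epithelium the pathway is known for growth arrest and for epithelial-mesenchymal transition. GDF15 is a divergent member of the family, secreted by stressed cells, whose receptor GFRAL with its partner RET is known from the brainstem.

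Levels are given as CPM, a gene's counts relative to the library size, after TMM scaling, which corrects library sizes for differences in RNA composition. Total counts were 55764405 to 78610457 per sample, and at this depth 3 counts, taken as the smallest detectable level, were 0.0373 to 0.0546 CPM. This level was set with counting error only in mind. It may be too low, because each fragment may stand for 4 counts in this table. The targeted lncRNA AC007128.1 was near the limit of the data, with 33 to 69 counts in shCtrl and 15 to 37 in shAC007128.1 samples. Its groups overlapped (log2 fold change -0.77, standard error 0.51, edgeR adjusted p = 0.271), so a lower level in the samples labelled shAC007128.1 was not detectable at this depth. AC007128.1 also shares 42.2% of its exonic bases with other annotated genes, so part of its few reads cannot be assigned. The paper reports by qPCR that its hairpin reduced AC007128.1, a measurement that these counts do not repeat. All 9 squamous markers examined averaged over 1 CPM in at least 1 group, against 2 of 6 fibroblast, 1 of 3 endothelial and 0 of 4 leukocyte markers. The summed squamous markers ran from 1512 to 1557 CPM in shCtrl and from 2145 to 2875 CPM in shAC007128.1 samples, and their part in the results below was not tested. These markers went both ways, with SOX2, KRT14 and KRT6A called higher and DSG3, a desmosomal cadherin, called lower (from a mean of 203 to 95.3 CPM, edgeR adjusted p = 0.000122). SOX2 was under 1 CPM in shCtrl, with 24 to 40 counts. Of the markers of other cell types, LUM (from a mean of 1.07 to 4.71 CPM) and CD79A were called higher and PDGFRB lower. CD79A and PDGFRB stayed under 1 CPM.

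GDF15 and INHBA were the members that differed most, and both were lower in shAC007128.1 cells. TGFB2 was also lower, by less than 2-fold, while TGFB1, SMAD3 and SMAD7 were higher. TGFBR2 and SMAD4 were slightly lower. For TGFBR1 and SMAD2 the 2 groups overlapped. Of the 10 members, 2 were past the limits used for a call (a Benjamini-Hochberg adjusted p over all genes of at most 0.05, together with at least 1 log2 unit between the groups), both in the lower direction. Across all genes tested 10.1% were called lower and 5.57% higher, and nothing is read from the members' count, because the members were chosen on this contrast. The shCtrl and shAC007128.1 samples did not overlap for 8 of the 10 members, 3 of them higher and 5 lower in shAC007128.1. Among all genes tested the groups were apart for 55.2%, with 27% of all genes apart and higher and 28.2% apart and lower. The median log2 fold change was -0.24 over the members and -0.02 over all genes tested.

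**Figure D1:**
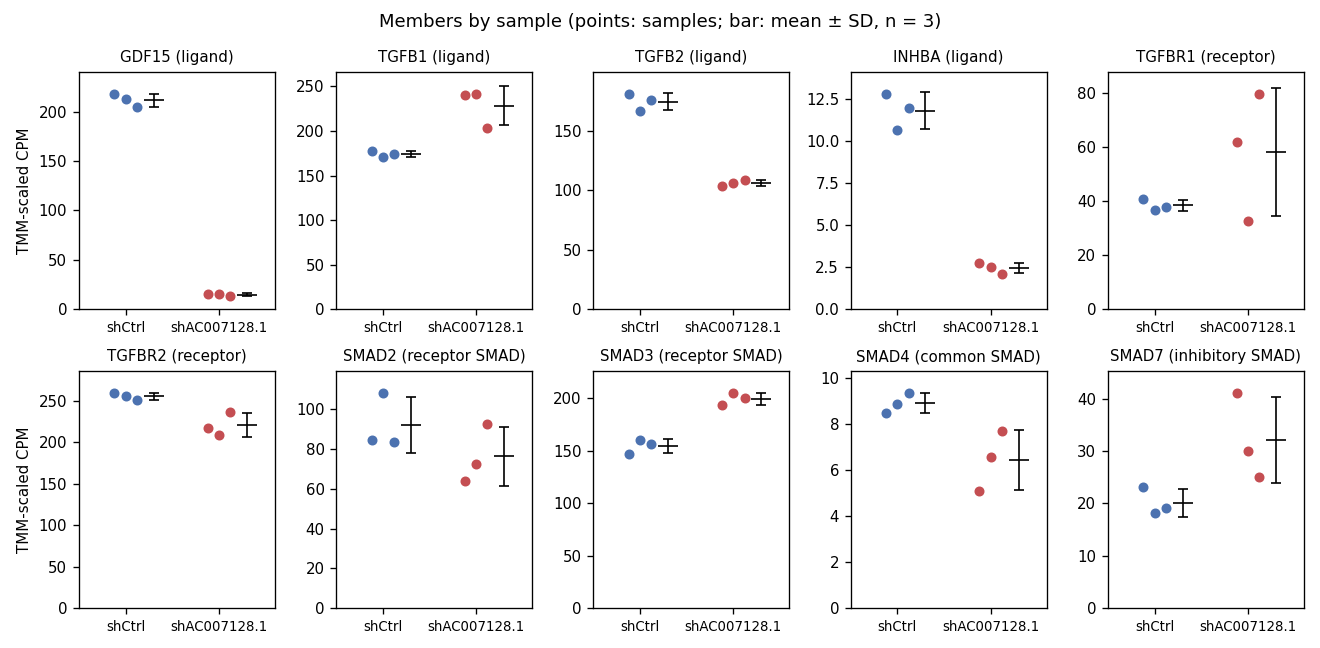
TMM-scaled CPM (y axis, from 0) of the 10 members in 3 shCtrl (blue) and 3 shAC007128.1 (red) samples, with the mean ± SD beside them. GDF15 lies at 205 to 218 CPM in shCtrl and at most at 15.6 CPM in shAC007128.1, and the 3 shAC007128.1 samples of TGFBR1 are spread from 32.7 to 79.8 CPM.

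GDF15 lies on chromosome 19 from 18374731 to 18389176 on the plus strand (hg38, GENCODE v44), shares no exonic base with another annotated gene, and is listed as ENSG00000130513. It was read at 218, 212 and 205 CPM in shCtrl replicates 1, 2 and 3, and at 15.6, 15.6 and 13.1 CPM in shAC007128.1 replicates 1, 2 and 3. Every shAC007128.1 sample lay far below every shCtrl sample, and the samples of each group lay close together. The mean went from 212 ± 6.53 CPM (SD, n = 3) to 14.8 ± 1.47 CPM (SD, n = 3), a level 14.3-fold lower. The log2 fold change was -3.84 with a standard error of 0.10. At least 759 counts stood behind every sample's value, so depth did not limit this comparison. Over the settings tried, including each sample left out in turn, the log2 fold change of GDF15 stayed between -3.92 and -3.77.

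INHBA encodes the beta A subunit, which pairs with itself to form activin A and with the inhibin alpha subunit to form inhibin A. It lies on chromosome 7 from 41667168 to 41705834 on the minus strand. Its levels were 12.8, 10.6 and 11.97 CPM in shCtrl replicates 1, 2 and 3 and 2.72, 2.53 and 2.12 CPM in shAC007128.1 replicates 1, 2 and 3. The groups were well apart, with the shAC007128.1 mean of 2.46 ± 0.310 CPM (SD, n = 3) 4.80-fold below the shCtrl mean of 11.8 ± 1.08 CPM (SD, n = 3). The log2 fold change was -2.26 with a standard error of 0.16. Its antisense neighbour INHBA-AS1, with which INHBA shares 248 exonic bases, was at a mean of 0.0526 CPM in shCtrl samples and at 0 in shAC007128.1 samples, close to the smallest detectable level.

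Since GDF15 and INHBA were the members past the limits, the sequence ahead of their RefSeq start sites (GRCh38.p14) was read for 4 short motifs on both strands. The motifs were GTCTAGAC, the palindromic SMAD element, TGANTCA, the AP-1 site, TGATGNAAN, the composite C/EBP-ATF element, and GGGCGG, the GC box bound by Sp1. In the 250 bases before the start, GDF15 held 2 GC boxes and none of the other motifs. Both are shown with 12 bases on either side and the box in capitals, the first, at chr19:18386027-18386056, being a match on the minus strand and the second, at chr19:18386076-18386105, on the plus strand. The sequences are written along the plus strand.
GDF15 GC box 119 bases before the start: cacccccagaccCCGCCCagctgtggtcat
GDF15 GC box 70 bases before the start: gcagggggaggaGGGCGGgactgagcaggc
GENCODE v44 counts 241 of these 250 bases as exonic in longer GDF15 transcripts, so they precede only the RefSeq start. INHBA held none of the 4 motifs in chr7:41703091-41703340, on the minus strand, a window with a GC content of 42.8% against 58.4% for GDF15. GENCODE v44 places this window inside the INHBA gene and over INHBA-AS1, with 0 exonic bases of either. It too precedes only the RefSeq start. Of 35116 RefSeq windows of this length, 42.6% held a GC box, 6.57% an AP-1 site, 3.13% the C/EBP-ATF element and 0.182% the SMAD palindrome. A match describes the letters and not a site in use, and the absence of a match says nothing of the factor. The other 8 members were also matched in the table, several with more than 1 start site, and neither the SMAD palindrome nor the C/EBP-ATF element was in any of their windows. An AP-1 site was in 1 window, the third start site of SMAD3.

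TGFB1 and TGFB2 are paralogous ligands of the same receptor pair, secreted as latent complexes, and they differed in opposite directions. TGFB1 (chromosome 19, 41301587 to 41353922, minus strand) was at 178, 170 and 174 CPM in shCtrl replicates 1, 2 and 3 and at 241, 242 and 203 CPM in shAC007128.1 replicates 1, 2 and 3. The groups did not overlap, but shAC007128.1 replicate 3 stood below the other two. The means were 174 ± 3.75 and 228 ± 21.9 CPM (SD, n = 3 each), 1.31-fold higher in shAC007128.1 cells, with a log2 fold change of 0.39 and a standard error of 0.08. TGFB1 shares 215 of its 3264 exonic bases with HNRNPUL1 on the opposite strand, whose mean went from 315 ± 13.6 to 414 ± 72.2 CPM (SD, n = 3 each). The kit does not mark strand, so reads from the shared bases cannot be told apart.

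TGFB2 (chromosome 1, 218345336 to 218444619, plus strand) was at 181, 167 and 176 CPM in shCtrl replicates 1, 2 and 3 and at 103, 106 and 109 CPM in shAC007128.1 replicates 1, 2 and 3. Each group was tight and the gap between them was wide. The means of 174 ± 7.10 and 106 ± 2.64 CPM (SD, n = 3 each) gave 60.8% of the control level, with a log2 fold change of -0.72 and a standard error of 0.07. Part of the last exon is annotated a second time as the lncRNA TGFB2-OT1, with 1371 shared bases. The deposited table put 42.7 CPM on TGFB2-OT1 in shCtrl replicate 2 and 22.4 CPM in shAC007128.1 replicate 3, and at most 0.291 CPM in each of the other 4 samples. With both entries added, the samples ran from 176 to 210 CPM in shCtrl and from 104 to 131 CPM in shAC007128.1, so the groups stayed apart.

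Within a sample the TGFB1 to TGFB2 ratio of CPM was 0.984 to 1.02 in shCtrl and 1.87 to 2.33 in shAC007128.1 cells. TGFB2 was taken here without the TGFB2-OT1 entry. With that entry added, the ratio would be lower in shCtrl replicate 2 and in shAC007128.1 replicate 3, where it held 42.7 and 22.4 CPM. A ratio within a sample shows unequal change and does not depend on the scaling between libraries.

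The type I receptor TGFBR1 (chromosome 9, 99104038 to 99154192, plus strand) was the member with the widest spread. It was at 40.9, 36.7 and 37.8 CPM in shCtrl replicates 1, 2 and 3, and at 62.2, 32.7 and 79.8 CPM in shAC007128.1 replicates 1, 2 and 3. The shAC007128.1 samples thus fell on both sides of the control range, with a coefficient of variation of 40.8% against 5.65% in shCtrl. The log2 fold change of 0.60 had a standard error of 0.28, and it ran from 0.29 to 0.89 when each sample was left out in turn. The 0.29 came without shAC007128.1 replicate 3 and the 0.89 without shAC007128.1 replicate 2.

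The type II receptor TGFBR2 (chromosome 3, 30606601 to 30694142, plus strand), which binds the ligand first, had the highest CPM of the 10 members in shCtrl cells. Its levels were 260, 256 and 251 CPM in shCtrl replicates 1, 2 and 3 and 217, 209 and 237 CPM in shAC007128.1 replicates 1, 2 and 3. The groups lay apart, although the difference was small, at 86.5% of the control mean. The log2 fold change was -0.21 with a standard error of 0.07. The TGFBR1 to TGFBR2 ratio of CPM was 0.144 to 0.157 in shCtrl samples, and 0.286, 0.157 and 0.336 in shAC007128.1 replicates 1, 2 and 3.

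Of the receptor-activated SMADs, SMAD3 was higher in shAC007128.1 cells and SMAD2 overlapped between the groups. SMAD3 (chromosome 15, 67063763 to 67195173, plus strand) binds DNA directly. It stood at 147, 160 and 156 CPM in shCtrl replicates 1, 2 and 3 and at 194, 205 and 200 CPM in shAC007128.1 replicates 1, 2 and 3. This is a 1.29-fold higher mean, with a log2 fold change of 0.37 and a standard error of 0.07, and spreads of 6.88 and 5.70 CPM (SD, n = 3 each). SMAD2 (chromosome 18, 47808957 to 47931146, minus strand), its close paralog, stood at 84.6, 108 and 83.5 CPM in shCtrl replicates 1, 2 and 3 and at 64.0, 72.2 and 92.5 CPM in shAC007128.1 replicates 1, 2 and 3. The highest shAC007128.1 sample exceeded 2 of the 3 controls. Its log2 fold change of -0.27 had a standard error of 0.16 and ran from -0.44 to -0.14 with each sample left out. The SMAD3 to SMAD2 ratio of CPM was 1.48 to 1.87 in shCtrl and 2.16 to 3.03 in shAC007128.1 samples.

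SMAD4 (chromosome 18, 51028528 to 51085045, plus strand), the common partner of all receptor-activated SMADs, was the lowest of the SMAD members. It was read at 8.50, 8.86 and 9.37 CPM in shCtrl replicates 1, 2 and 3 and at 5.11, 6.57 and 7.69 CPM in shAC007128.1 replicates 1, 2 and 3. The groups did not overlap, and the mean was 72.4% of control, with a log2 fold change of -0.47 and a standard error of 0.18. Between 287 and 713 counts stood behind these values.

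SMAD7 (chromosome 18, 48919853 to 48950965, minus strand), the inhibitory SMAD and a direct target of the pathway, was at 23.2, 18.1 and 19.2 CPM in shCtrl replicates 1, 2 and 3. It was at 41.2, 29.9 and 25.1 CPM in shAC007128.1 replicates 1, 2 and 3. The lowest shAC007128.1 sample lay just above the highest control. The means were 20.2 ± 2.65 and 32.1 ± 8.24 CPM (SD, n = 3 each), with a log2 fold change of 0.67 and a standard error of 0.19.

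**Figure D2:**
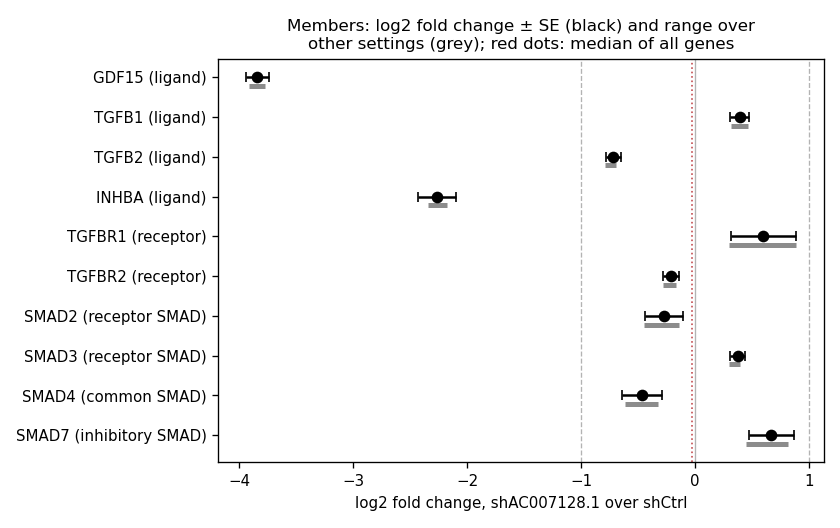
Log2 fold change of each member, shAC007128.1 over shCtrl (x axis), with its standard error in black and the range over the other settings in grey; dashed lines mark -1 and 1, and the red dotted line the median of all genes. GDF15 at -3.84 and INHBA at -2.26 lie beyond -1, and the other 8 members lie between -0.72 and 0.67.

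Levels of different genes were compared as CPM per kilobase of annotated exonic length. In shCtrl cells GDF15 was first, at 101 ± 3.13 CPM per kilobase (SD, n = 3), followed by TGFB1 at 53.4 ± 1.15 and TGFBR2 at 37.3 ± 0.655. TGFB2 at 28.8 ± 1.17 and SMAD3 at 15.4 ± 0.687 CPM per kilobase came next. SMAD7 at 5.11 ± 0.672 and TGFBR1 at 4.82 ± 0.272 were neighbours whose ranges overlapped, the only neighbours in the shCtrl order that did. SMAD2 at 2.53 ± 0.385, INHBA at 1.42 ± 0.130 and SMAD4 at 0.455 ± 0.0224 CPM per kilobase closed the order. SMAD2 and SMAD4 carry very long annotated exons, 36426 and 19606 bases in all, which lowers their level on this scale.

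In shAC007128.1 cells TGFB1 was first, at 70.0 ± 6.71 CPM per kilobase (SD, n = 3), and GDF15 had rank 7, at 7.07 ± 0.704. SMAD7 at 8.13 ± 2.09, TGFBR1 at 7.29 ± 2.98 and GDF15 were neighbours whose ranges overlapped. INHBA, at 0.296 ± 0.0374 CPM per kilobase, was last, with a range that overlapped that of SMAD4 at 0.329 ± 0.0661. Taking the longest or the MANE Select transcript as the length left the shCtrl order of all 10 members the same. With either of these lengths GDF15 had rank 5 in the shAC007128.1 order and not rank 7, ahead of SMAD7 and TGFBR1.

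**Figure D3:**
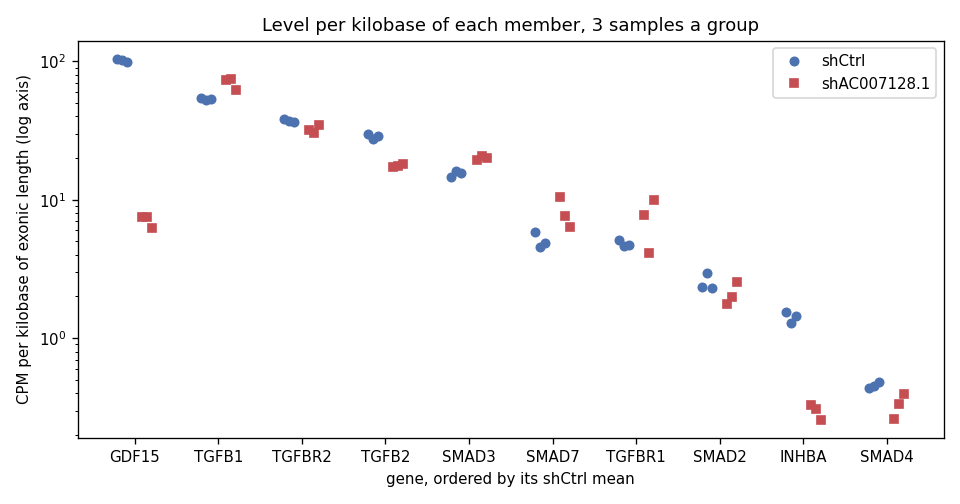
CPM per kilobase of exonic length (y axis, log scale) of each member in the 3 samples of each group, ordered by the shCtrl mean. GDF15 is the highest member in shCtrl, at 98.2 to 104, and lies at 6.26 to 7.49 in shAC007128.1 samples.

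Among the 4 ligands together, GDF15 made up 53.9 to 55.6% of the summed level per kilobase in shCtrl samples and 7.22 to 7.57% in shAC007128.1 samples. TGFB1 made up 28.6 to 29.3% in shCtrl and 71.8 to 74.8% in shAC007128.1 samples. TGFB2, taken without the TGFB2-OT1 entry, held 15.1 to 16.0% in shCtrl and 17.3 to 20.7% in shAC007128.1 samples. That entry held 42.7 CPM in shCtrl replicate 2 and 22.4 CPM in shAC007128.1 replicate 3. The shares were not recomputed with it, so no higher or lower TGFB2 share is read from them. INHBA stayed under 1% of the sum. These are shares of mRNA and not of secreted protein.

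**Figure D4:**
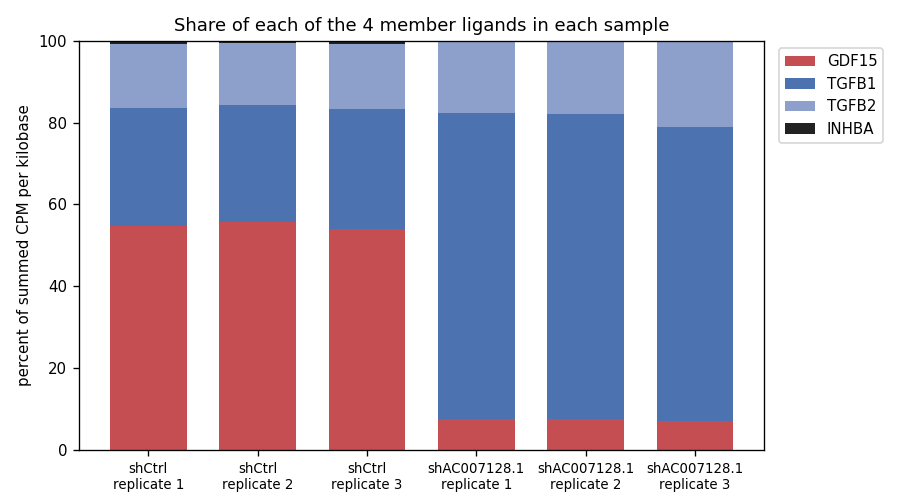
Percent of the summed CPM per kilobase of GDF15, TGFB1, TGFB2 and INHBA (y axis) held by each ligand in each of the 6 samples. GDF15 holds over 50% in each shCtrl sample and TGFB1 over 70% in each shAC007128.1 sample, with TGFB2 taken without the TGFB2-OT1 entry.

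The genes whose pattern over the 6 samples lay nearest to GDF15 were taken by the root mean square difference of log2 CPM, each centred on its own mean, among 12609 genes whose log2 mean CPM was at least 1. The nearest were NOXA1 (0.138), LINC00052 (0.166), ADM2 (0.173), LMF1 (0.239) and PYCR1 (0.254). PYCR1, an enzyme of proline synthesis, went from a mean of 71.4 to 6.59 CPM, and ADM2, a peptide hormone, from 9.42 to 0.717 CPM. NOXA1, an activator of NADPH oxidase, went from 13.3 to 0.892 CPM. With 2 groups, likeness over 6 samples rests mainly on a like difference between the groups.

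Of 6 regulators known to act on GDF15 transcription, 3 fell past the call limits and 0 rose, beside 10.1% of all genes tested called lower and 5.57% called higher. The median log2 fold change of the list was -1.01 against -0.02 over all genes, and the list was chosen with earlier results of these data known. The test was edgeR's quasi-likelihood test, with p adjusted over all genes. EGR1, an immediate early zinc finger factor, fell from 386 ± 7.40 to 91.7 ± 7.09 CPM (SD, n = 3 each), by -2.07 on the log2 scale (edgeR adjusted p = 1.6e-05). DDIT3, the stress factor CHOP, fell from 80.8 ± 13.3 to 11.5 ± 3.18 CPM, with -2.82 ± 0.23 (standard error) on the log2 scale and an edgeR adjusted p of 0.000143. DDIT3 shares 27.2% of its exonic bases with MARS1 on the opposite strand, which itself went from a mean of 335 to 175 CPM, so part of its reads cannot be assigned. ATF3 went from 79.6 ± 13.9 to 31.3 ± 9.45 CPM (log2 fold change -1.35, edgeR adjusted p = 0.0033). ATF4 (-0.67) was lower at an edgeR adjusted p of at most 0.05 but inside the fold limit, and NFE2L2 (-0.59, edgeR adjusted p = 0.0649) passed neither. At that p alone, 19.8% of all genes tested were lower and 21% higher. The receptor genes of GDF15 were not detected in these cells beyond traces, with 0 counts of GFRAL in all 6 samples and at most 5 counts of RET in any sample.

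The remaining genes of the family were described by lists of ligands, receptors, latency and activation genes, extracellular antagonists, SMADs with their regulators, and known targets. With the GDF15 regulators these lists hold 126 genes, of which 96 were tested and 30 did not pass the filter, with at most 24 counts in any sample. Among the 96, 10 were called higher and 11 lower, that is beside 5.57% and 10.1% of all genes tested. Their median log2 fold change was -0.04.

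Of 29 other ligands 15 were tested, and 2 were called higher and 3 lower. BMP7, a ligand of the BMP branch, rose from 14.3 ± 0.889 to 52.0 ± 4.91 CPM (SD, n = 3 each), which is 1.86 ± 0.11 (standard error) on the log2 scale, with an edgeR adjusted p of 4.13e-05. INHA, the inhibin alpha subunit that pairs with the INHBA product, fell from 4.11 ± 0.512 to 0.489 ± 0.0693 CPM, which is -3.06 ± 0.22 (standard error) on the log2 scale, with an edgeR adjusted p of 8.61e-05. Its 3 shAC007128.1 samples, at 0.463, 0.437 and 0.568 CPM, lay far below the lowest control at 3.52 CPM. INHBE, an activin subunit known from liver and from stressed cells, fell from 1.40 to 0.178 CPM (log2 fold change -2.96, edgeR adjusted p = 0.000452). Only 8 to 12 counts stood behind INHBE in the shAC007128.1 samples, and a filter of at least 10 counts in every sample removed INHBE. It shares 16.4% of its exonic bases with an antisense lncRNA, at means of 1.006 and 0.0820 CPM, so reads of the pair cannot be told apart. GDF9 fell from 1.16 to 0.307 CPM (log2 fold change -1.91, edgeR adjusted p = 0.00579), with 12 to 24 counts in the shAC007128.1 samples. It shares 255 exonic bases with UQCRQ on the opposite strand, at means of 87.5 CPM in shCtrl and 142 CPM in shAC007128.1 cells. Part of the GDF9 reads therefore cannot be assigned. BMP4, the second ligand called higher, rested on low counts (log2 fold change 2.43, edgeR adjusted p = 0.0192). It had 5 to 18 counts in shCtrl and 20 to 75 in shAC007128.1 samples. INHBC, another activin subunit, stayed under 1 CPM in every sample and was not called.

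Of 15 other receptors and co-receptors 12 were tested, with 2 called higher and 0 lower. TGFBR3, the co-receptor betaglycan that presents TGFB2 to the receptor pair and also binds inhibin, was at 2.47, 3.48 and 2.70 CPM in shCtrl and at 10.9, 8.88 and 10.4 CPM in shAC007128.1 replicates 1, 2 and 3. It rose by 1.803 ± 0.19 (standard error) on the log2 scale, with an edgeR adjusted p of 0.000357. ACVR1C, a type I receptor for activin and Nodal, rose from 0.554 to 1.39 CPM (log2 fold change 1.32, edgeR adjusted p = 0.0155).

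Latent TGF-beta is held in the matrix by LTBP proteins and released by integrins. Of the 12 genes of this list 10 were tested, with 2 called higher and 1 lower. LTBP2, a matrix protein of this family that does not itself bind latent TGF-beta, fell from 28.6 ± 2.23 to 6.95 ± 0.879 CPM (SD, n = 3 each), or -2.04 in log2 (edgeR adjusted p = 6.26e-05). ITGB6, the epithelial integrin subunit that activates latent TGF-beta, rose from 5.62 ± 0.721 to 16.0 ± 0.707 CPM, or 1.51 in log2 (edgeR adjusted p = 0.000227). ITGB8, the other activating subunit, rose from 26.0 ± 2.16 to 53.9 ± 5.69 CPM, or 1.05 in log2 (edgeR adjusted p = 0.000419), and dropped just under the fold limit in 3 of the settings tried.

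Of 16 extracellular antagonists 7 were tested and 0 were called at the limits, with 2 higher and 0 lower at an edgeR adjusted p of at most 0.05 alone. The antagonists with the highest CPM were TWSG1, a BMP binding protein, at means of 71.97 and 118 CPM, and FSTL3, which binds activin, at 58.4 and 52.1 CPM in shCtrl and shAC007128.1 cells. The 2 antagonists higher at that p alone were TWSG1 and FST. FST had means of 10.6 CPM in shCtrl and 20.9 CPM in shAC007128.1 cells (log2 fold change 0.98, edgeR adjusted p = 0.0027). Among 20 tested SMADs and SMAD regulators the only call was SMAD6, the inhibitor of the BMP branch. It fell from 4.34 ± 0.576 to 1.83 ± 0.502 CPM (SD, n = 3 each), which is -1.25 ± 0.24 (standard error) on the log2 scale, with an edgeR adjusted p of 0.00586. SMAD7, the inhibitor of the TGF-beta branch, was on the other side of 0 at 0.67.

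Of 33 targets of TGF-beta and BMP signaling 32 were tested, with 4 called higher and 5 lower, and a median log2 fold change of -0.24. Known targets were called in both directions. CDKN1A, the cell cycle inhibitor p21, fell from 141 ± 3.69 to 42.9 ± 4.64 CPM (SD, n = 3 each), or -1.72 in log2 (edgeR adjusted p = 3.83e-05). CCN2, the connective tissue growth factor, fell from 66.3 ± 2.34 to 24.7 ± 1.12 CPM, or -1.43 in log2 (edgeR adjusted p = 3.97e-05). KLF10, the TGF-beta inducible early gene, rose from 15.9 ± 0.237 to 53.3 ± 6.27 CPM, or 1.74 in log2 (edgeR adjusted p = 4.95e-05). LTBP2, also on this list, was given above.

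**Figure D5:**
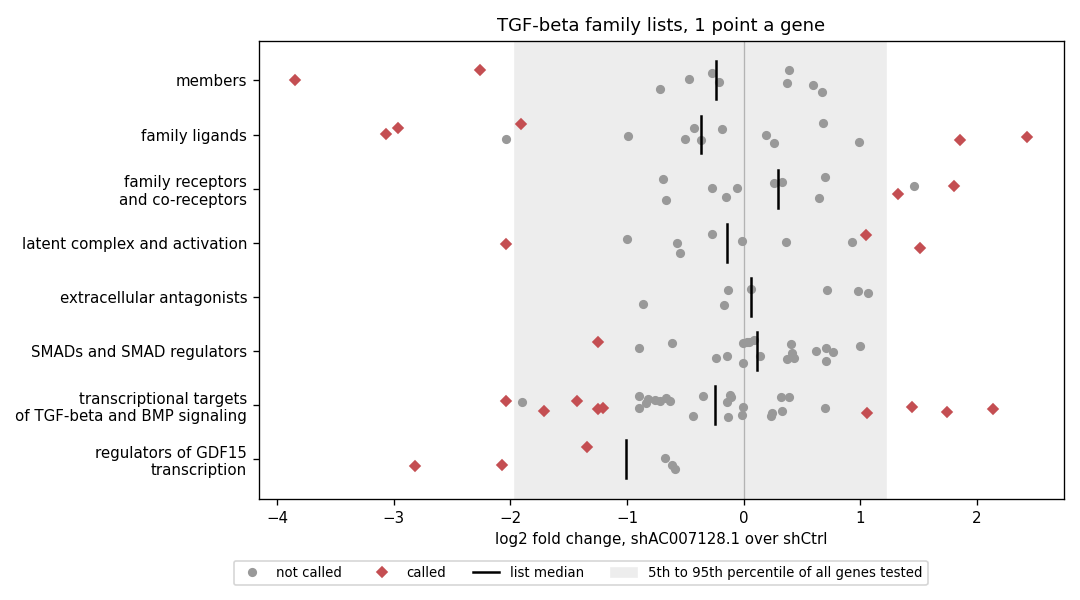
Log2 fold change, shAC007128.1 over shCtrl (x axis), of each tested gene of the member group and the 7 lists; red diamonds are past the call limits, black bars are list medians, and the grey band spans the 5th to 95th percentile of all genes tested, -1.96 to 1.22. Called genes lie on both sides in the ligand, activation and target lists, and the 3 calls among the GDF15 regulators are all lower.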

How the data were processed

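RNA of 6 KYSE150 samples was made into poly-A TruSeq libraries by the authors, who mapped the reads to hg38 with TopHat. The submitters' processing notes name TopHat2 2.0.6, CASAVA 1.8 and the builds GRCh38 and mm10. The authors deposited estimated counts for each Ensembl gene as whole numbers, without normalization; the counting program and use of strand are not given in the sources used here. Low values pile up at multiples of 4. There were 0 unmapped sample columns. Of 67140 identifiers, 60357 (89.9%) were found in GENCODE v44. Counts were filtered with filterByExpr, scaled by TMM (factors 0.967 to 1.04) and tested with edgeR 4.0.16 (glmQLFit, glmQLFTest; R 4.3.3), without a replicate block. The standard error is the log2 fold change over the root of F. The test was checked on simulated counts. No 2 replicates agreed within sampling noise. Alternatives were DESeq2 1.42.0, limma-voom 3.58.1, other scalings and filters, the block, no fold limit and each sample left out; counts divided by 4 and the MANE Select length were added after seeing the data. The members, gene lists and naming rule were chosen with earlier results of these data known. Named genes were the members, AC007128.1, the 4 called genes of smallest p in each list, or the 2 of highest CPM where none was called, and the 5 genes nearest to GDF15. Other genes given with values, among them INHBC, BMP4, FST, ATF4, NFE2L2, GFRAL, RET, DSG3 and those of the closing section, were chosen after their values were seen. The values of 1 listed gene are not reported here.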

Additional observations from a re-analysis of the deposited data

How the results depend on the processing

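Without a limit on fold change the calls rose to 4041 genes higher and 3820 lower over the whole table (1073 and 1945 with it). These were 21% and 19.8% of all genes tested. Among the pathway genes the calls rose to 29 and 28 (10 and 11 with the limit). Of the 10 members, 7 were then past the remaining limit (2 with both), and nothing is read from this count, because the members were chosen on this contrast. Scaling by library size alone moved the log2 fold change of TGFB2 to -0.79. ITGB8 dropped under the fold limit with library size only (0.98), without shCtrl replicate 2 (0.99) and without shAC007128.1 replicate 3 (0.98). Deviations of samples that share a number correlated at 0.0306, -0.0254 and -0.0299, so the numbers were not taken as pairs. With the replicate block 977 genes were called higher and 1692 lower, 9 and 12 of them pathway genes, and the block changed no call among the 18 named list genes. With each sample left out 970 to 1068 genes were called higher and 1586 to 2023 lower, of which 8 to 11 and 11 to 13 were pathway genes, and 2 members were past the limits. None of the 10 members and 18 named list genes changed sign under the alternatives run. AC007128.1 and the genes nearest to GDF15 were not rerun. Other scalings moved the median of all genes by less than 0.1 on the log2 scale (from -0.02 to -0.10 with library size alone). Depth limits statements on genes under about 1 CPM, where each fragment may stand for 4 counts.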

Other observations

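Genes of the BMP branch were brought together from the lists after their values were seen, so they are given as a description. BMP4 stood at 0.246, 0.162 and 0.0737 CPM in shCtrl and at 0.356, 0.983 and 1.29 CPM in shAC007128.1 replicates 1, 2 and 3. The groups were apart but rested on low counts, with shCtrl near the smallest detectable level. Of the other tested BMP ligands beside BMP7, BMP2 had means of 2.71 and 3.25 CPM and BMP5 of 0.542 and 1.07 CPM in shCtrl and shAC007128.1 cells, while BMP8A went the other way at 2.80 and 2.47 CPM, as did BMP8B at 4.62 and 3.58 CPM. The receptors BMPR1A, BMPR1B, BMPR2 and ACVR1 had log2 fold changes of 0.64, 1.46, 0.33 and 0.26. BMPR1B rested on low levels, with means of 0.381 CPM in shCtrl and 1.05 CPM in shAC007128.1 cells (edgeR adjusted p = 0.0638). For ACVR1 the groups overlapped. The transducers SMAD1 and SMAD5 had 0.43 and 0.71, and SMAD9, under 1 CPM in both groups, had -0.61. The targets ID1, ID2 and ID3 had log2 fold changes of 0.32, -0.34 and -0.72.

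SKI, which holds SMAD complexes inactive on DNA, and LTBP4, a latency protein, lay just inside the fold limit, with log2 fold changes of 0.997 and -0.999. SKI was at 73.5, 71.9 and 73.3 CPM in shCtrl and at 145, 147 and 144 CPM in shAC007128.1 replicates 1, 2 and 3. LTBP4 was at 152, 138 and 134 CPM in shCtrl and at 69.0, 73.4 and 69.9 CPM in shAC007128.1 replicates 1, 2 and 3.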
